A study of Mus musculus with 15 samples.

Results

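Bulk RNA-seq of mouse thalamus was examined for 10 genes of lipid droplets and fatty acid binding, out of 29659 genes listed for each library. The members were taken by gene name: the droplet coat genes Plin2 and Plin3, the fatty acid carriers Fabp3, Fabp5 and Fabp7, the lipase Pnpla2 with its inhibitor Hilpda, and the synthesis genes Acsl3, Dgat1 and Dgat2. All 10 were listed in every library, and all 10 passed the filter on low values. The 15 libraries came from mice aged 4.5 months in 4 genotype groups, all of which are given as carrying human APOE4 knocked in at both alleles. 5EL mice (n = 5) bore the 5xFAD amyloid transgenes with Lilrb4a intact, and 5ELKO mice (n = 4) bore 5xFAD with Lilrb4a deleted at both alleles. EL mice (n = 3) and ELKO mice (n = 3) had no 5xFAD and differed in Lilrb4a in the same way. The deletion is of the germline, so every cell type lacked the gene, and the 5xFAD transgenes are expressed in neurons.

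A lipid droplet is a store of triglycerides and sterol esters inside a single layer of phospholipid. Acyl-CoA synthetases activate fatty acids, diacylglycerol acyltransferases join them into triglyceride, perilipins coat the droplet and guard it, and adipose triglyceride lipase, the product of Pnpla2, opens the store again. Small binding proteins of the FABP family carry fatty acids through the watery cytosol. In brain, droplets are known from glia, including microglia near amyloid plaques, and Fabp7 is a classical gene of astrocytes and radial glia.

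The deposited values are on a log2 scale on which low genes lie close together, so all levels and differences here are log2 values and they give no read number for a single gene. The tissue label was checked against 6 genes of thalamic relay neurons, of which the lowest value in a library was 9.46, with Prkcd between 13.22 and 14.72 and Slc17a6, a glutamate transporter, between 13.68 and 14.01. Adipocyte markers, which would come with fat tissue, were near the bottom of the scale, between -2.09 and -0.56. Lilrb4a lay at 2.331 or below in libraries labelled as lacking it and at 2.345 or above in the others, a small step near the floor of the scale. The choroid plexus gene Ttr reached 13.71 in 5EL replicate 1 and 14.66 in ELKO replicate 2. Mouse Apoe was 10.90 in the library labelled ELKO replicate 1, against at most 6.37 in 5EL, which goes against that genotype for this library. No 2 libraries held identical values. The labels do not say whether animals were littermates, so p-values measure the spread between these libraries.

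All members lie on autosomes. In the GENCODE M21 annotation of GRCm38, Plin2 spans chromosome 4 from 86648386 to 86670060 on the minus strand, and Fabp7 spans chromosome 10 from 57784881 to 57788450 on the plus strand. Fabp5 lies on chromosome 3 from 10012548 to 10016607 and Fabp3 on chromosome 4 from 130308595 to 130315463, both on the plus strand. Acsl3 lies on chromosome 1 from 78657825 to 78707743 on the plus strand.

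The carriers are relatives in sequence, but none of the 3 shared a stretch of 50 bases with another of them. Their coding sequences were 66.7% identical between Fabp3 and Fabp7, 55.7% between Fabp3 and Fabp5, and 55.4% between Fabp5 and Fabp7. The most conserved coding window of 60 bases is shown from the GENCODE transcripts, 5′ to 3′, at coding bases 49 to 108 of Fabp3 and Fabp7 and 55 to 114 of Fabp5, with the 36 bases shared by the 3 genes in capitals.
Fabp3: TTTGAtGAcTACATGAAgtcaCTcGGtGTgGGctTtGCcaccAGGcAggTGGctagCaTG
Fabp5: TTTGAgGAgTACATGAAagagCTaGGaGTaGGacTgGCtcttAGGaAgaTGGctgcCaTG
Fabp7: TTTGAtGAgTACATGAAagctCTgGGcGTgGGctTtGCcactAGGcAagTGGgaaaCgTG
Of all stretches of 50 bases in the Fabp7 transcript 0 were found in a transcript of another gene. Of those of Fabp5, 21.1% occurred in another gene, in each case 1 of 5 pseudogenes, and of those of Fabp3, 37.3%, in Fabp3-ps1, Gm10570 and Zcchc17. These copies were low where listed: Gm6166, which shares most with Fabp5, lay at 3.44 to 5.16, and Fabp3-ps1 at 2.50 to 2.62. Zcchc17 was as high as Fabp3, at 10.06 to 10.37, but shared only 32 of its stretches. For Acsl3 4.1% of stretches also belong to Utp14b, for Plin2 4.9% to the pseudogene Gm12551, which lay at -2.09 to -2.08, and for Plin3 1.3% to 105 genes. Counting was without strand, and the values of these 5 members carry that uncertainty.

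The promoter windows of Plin2 and Fabp7 are shown because these were the 2 members with the largest positive differences between 5ELKO and 5EL. They were read from RefSeq windows of GRCm38.p6 that run from 250 bases before to 50 bases after the start of the gene, chr4:86670010-86670309 on the minus strand for Plin2 and chr10:57784673-57784972 on the plus strand for Fabp7. Capitals mark AGGTCA, the hexamer that nuclear receptors such as PPARs bind in pairs, and ACGTG, the core of hypoxia response elements, on either strand.
Plin2: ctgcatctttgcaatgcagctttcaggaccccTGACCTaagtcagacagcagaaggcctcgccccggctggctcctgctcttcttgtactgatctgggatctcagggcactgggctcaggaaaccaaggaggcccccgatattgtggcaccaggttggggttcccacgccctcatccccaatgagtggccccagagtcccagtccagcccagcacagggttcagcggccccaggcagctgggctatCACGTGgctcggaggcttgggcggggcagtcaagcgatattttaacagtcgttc
Fabp7: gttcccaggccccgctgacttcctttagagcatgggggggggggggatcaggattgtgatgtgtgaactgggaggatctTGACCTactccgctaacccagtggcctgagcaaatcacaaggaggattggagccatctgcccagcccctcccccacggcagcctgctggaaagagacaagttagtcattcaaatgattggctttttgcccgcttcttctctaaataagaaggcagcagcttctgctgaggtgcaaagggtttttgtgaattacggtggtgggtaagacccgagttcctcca
Each window holds one AGGTCA, in the reverse orientation, 218 bases before the RefSeq start of Plin2 and 171 bases before that of Fabp7. For Fabp7 this start lies after the GENCODE start given above, from which the distance is shorter. ACGTG lies in the Plin2 window on both strands within a single CACGTG, and is not in that of Fabp7. Windows were found for 7 of the members, Hilpda with 2. Of these 8 windows, 2 held AGGTCA and 2 held ACGTG, against 16.3% and 19.6% of 32851 promoters of this length. A match of letters says nothing about binding in this tissue.

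Divided by the length of the principal transcript, the members lay in 4 steps of level that no library crossed. Acsl3, Fabp5 and Fabp3 were highest, with means of 10.77, 10.49 and 10.28 on the log2 scale per kilobase, and their ranges over the 15 libraries overlapped. Fabp7 (9.46), Dgat2 (9.10) and Pnpla2 (8.49) followed, each overlapping its neighbour. Dgat1 stood alone at 7.60. Plin3 (6.82), Plin2 (6.45) and Hilpda (6.14) were lowest, again with overlap between neighbours. With the union of all annotated exons as length, these steps did not hold. Fabp5 moved to 8.64 and the fifth place, and Pnpla2 (7.75) stood alone. Dgat1 (6.90) overlapped Plin3 (6.77), and Hilpda (5.97) lay above Plin2 (5.55) in the mean.

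**Figure D1:**
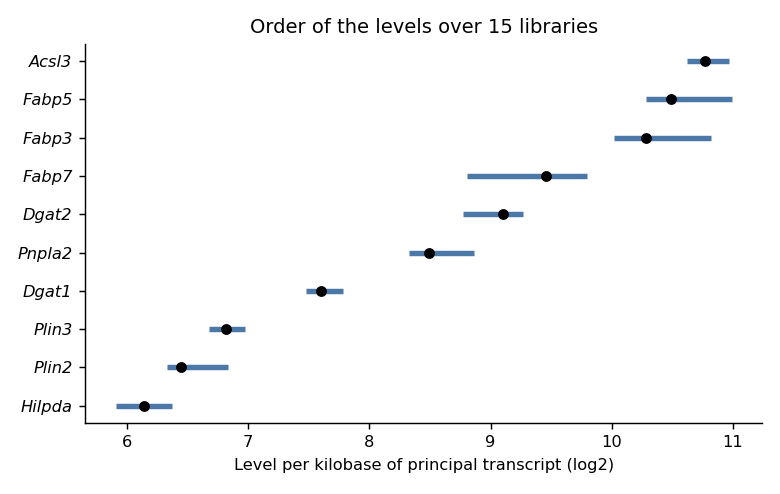
Level per kilobase of principal transcript (log2) of each member, with the mean over 15 libraries as a point and the lowest to highest library as a bar. Acsl3, Fabp5 and Fabp3 lie above the rest, from 10.77 to 10.28, and Plin3, Plin2 and Hilpda lie lowest, from 6.82 to 6.14.

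The first question was whether loss of Lilrb4a shifted these genes in mice with amyloid. None of the members passed the test between 5ELKO and 5EL (0 of 10 at an adjusted p under 0.05 in limma, lowest 0.999), where 0.0191% of 15743 tested genes did. Those 3 genes were Alb, Bhmt and Serpina3k, named after their values were seen, all typical of liver. At a nominal p under 0.05 there was 1 member, Fabp7, beside 2.49% of all tested genes, and no member separated the groups without overlap, beside 1.06%. The median difference of the members was 0.07 log2, against 0.002 over all tested genes, and 7 of 10 were positive.

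Plin2, which coats and protects droplets, was measured at 7.38, 7.29, 7.35, 7.26 and 7.29 in 5EL. In 5ELKO it was at 7.37, 7.75, 7.42 and 7.35, so 2 of 4 libraries lay above every 5EL library and replicate 2 stood well above the others. The difference was 0.16 log2 (SE 0.08, 95% interval -0.01 to 0.33, limma adjusted p = 0.999), and the exact permutation p was 0.0317. Without 5ELKO replicate 2 it was 0.07. Plin3, the coat protein that also waits in the cytosol, ran from 8.56 to 8.82 in 5EL and from 8.65 to 8.84 in 5ELKO. The groups overlapped in part, with 1 library of 5ELKO above every 5EL library, and the difference was 0.09 (95% interval -0.05 to 0.23).

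Fabp7, the carrier of astrocytes and radial glia, had the largest difference of the members. In 5EL it was measured at 8.85, 9.24, 8.95, 9.15 and 9.10, and in 5ELKO at 8.95, 9.33, 9.48 and 9.40. Replicates 2, 3 and 4 of 5ELKO lay above all 5EL libraries and replicate 1 lay among the lowest. The difference was 0.23 log2, or 1.17-fold (SE 0.11 log2, 95% interval 0.002 to 0.46 log2, limma nominal p = 0.0483, adjusted p = 0.999), and the exact permutation p was 0.111. Leaving out 1 library at a time gave 0.17 to 0.34 log2, the lowest without 5ELKO replicate 3 and the highest without 5ELKO replicate 1. Mean astrocyte list scores were 12.65 in 5EL and 12.70 in 5ELKO. Of the 7 genes of that list 6 were higher in 5ELKO, by a median of 0.063 over the list, and 0 had a nominal p under 0.05. Their part in the difference of Fabp7 was not tested.

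Fabp3 and Fabp5, the heart-type and epidermal-type carriers, went in different directions in this comparison, and neither passed the test. Fabp3 spanned 9.81 to 10.01 in 5EL and 9.93 to 10.07 in 5ELKO, a difference of 0.08 (95% interval -0.02 to 0.19). Fabp5 was at 10.36 to 10.58 in 5EL and 10.26 to 10.55 in 5ELKO, a difference of -0.06 (95% interval -0.20 to 0.07).

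Pnpla2 and Hilpda, the lipase and the inhibitor that holds it back and is made under hypoxia, showed no shift beyond their spread. Pnpla2 lay between 9.25 and 9.38 in 5EL and at 9.71, 9.18, 9.28 and 9.34 in 5ELKO, where replicate 1 stood apart. Its difference was 0.05 (95% interval -0.14 to 0.24), and that of Hilpda was -0.05 (95% interval -0.23 to 0.12). The synthesis genes were equally close. Acsl3 differed by 0.09 (95% interval -0.04 to 0.21), Dgat1 by -0.01 (95% interval -0.11 to 0.10) and Dgat2 by 0.06 (95% interval -0.15 to 0.26). Over all 4 groups Hilpda stayed between 5.89 and 6.34, with EL at 5.95, 6.16 and 6.34 and ELKO at 6.07, 5.92 and 6.31. Dgat2, the second acyltransferase of triglyceride synthesis, lay at 10.39, 10.39, 10.45, 9.95 and 10.15 in 5EL and at 10.43, 10.38, 10.28 and 10.19 in 5ELKO. Its lowest libraries were 5EL replicate 4 and EL replicate 3, at 9.95 and 9.98. In bulk tissue, fewer cells of a type and less RNA per cell cannot be told apart.

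Liver genes moved with the same groups: 8 of 10 genes of the hepatocyte list were higher in 5ELKO at a nominal p under 0.05, and the list score ran from 4.81 to 4.97 in 5EL and from 5.13 to 5.53 in 5ELKO. The score was not high in 5ELKO alone, as EL replicate 1 had 5.56, above every 5ELKO library. The other EL and ELKO libraries lay from 4.72 to 4.93. The part of the liver genes in the members' values was not tested.

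**Figure D2:**
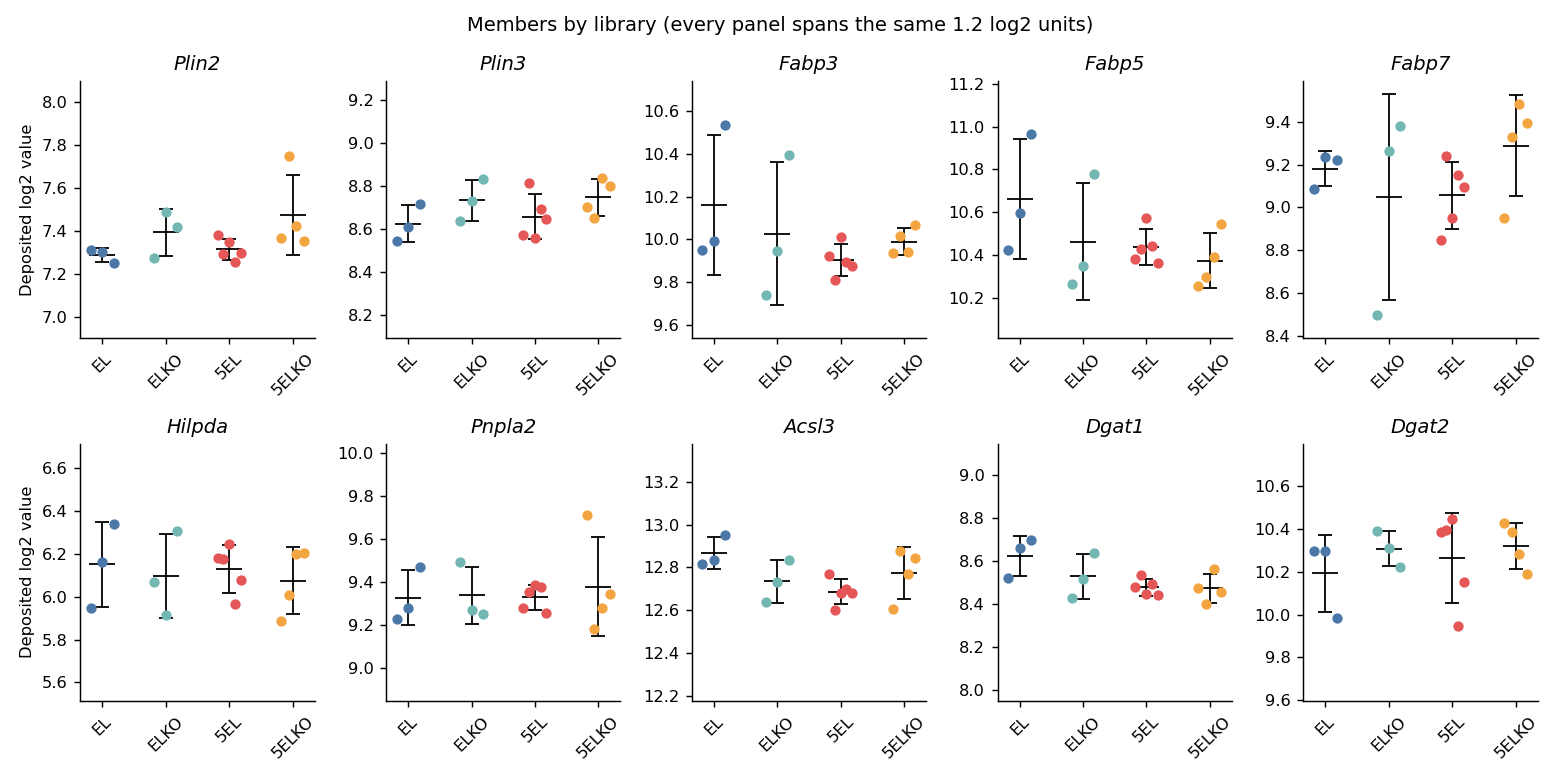
Deposited log2 value of each member in each library (points) by group, with the group mean and SD (bars, n = 3 EL, 3 ELKO, 5 5EL, 4 5ELKO). Fabp7 in ELKO replicate 1 (8.50), Plin2 in 5ELKO replicate 2 (7.75) and the highest EL and ELKO points of Fabp3 and Fabp5, both of replicate 3, stand apart from their groups.

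Without 5xFAD, the same deletion was compared between ELKO and EL. No member passed the test (0 of 10 in limma, beside 0.0% of 15804 tested genes), 0 had a nominal p under 0.05, beside 2.35%, and 0 separated the groups, beside 4.59%. An exact permutation test of 3 against 3 libraries cannot go below 0.1. Plin2 lay at 7.31, 7.30 and 7.25 in EL and at 7.27, 7.49 and 7.42 in ELKO, a difference of 0.10 (95% interval -0.09 to 0.30). Fabp7 lay at 9.09, 9.23 and 9.22 in EL and at 8.50, 9.26 and 9.38 in ELKO, where the low replicate 1 set the sign of the difference, -0.13 (95% interval -0.53 to 0.26). Without that library, whose Apoe value went against its labelled genotype, it was 0.14.

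Libraries of EL and ELKO with the same number resembled each other, as their deviations from the group means correlated at 0.453, 0.325 and 0.742 over tested genes. The labels name no pairs, so the pairing was read from these same values. In number 3, with 0.742, both libraries had the lowest slopes on gene length, -0.091 and -0.081, described below. The part of the slope in this correlation was not tested. With the replicate block, Fabp5 differed by -0.20 (SE 0.04), Acsl3 by -0.13 (SE 0.04) and Fabp3 by -0.13 (SE 0.05), each at a limma adjusted p of 0.69. These 3 of 10 members had a nominal p under 0.05 in that fit, beside 7.06% of 15727 genes. Without the block, the difference of Fabp5 ran from -0.36 to -0.05 when 1 library at a time was left out, the smallest without EL replicate 3. Marker scores differed between these groups too. Erythroid scores lay between 4.16 and 5.39 in EL and between 3.93 and 4.02 in ELKO, with 3 of 3 tested genes lower at a nominal p under 0.05. Those of relay neurons lay between 12.38 and 12.61 in EL and between 12.22 and 12.42 in ELKO. Over the 15 libraries r with these 2 scores ran from 0.535 to 0.736 for Fabp3, Fabp5 and Acsl3, and their part in the differences was not tested. Fabp5 was 10.42, 10.60 and 10.97 in EL and 10.26, 10.35 and 10.78 in ELKO, with differences of -0.16, -0.25 and -0.19 within the numbered pairs. The values were lower in 3 of 3 pairs for Fabp3, Fabp5, Acsl3 and Dgat1, and higher in 3 of 3 for Plin3 and Dgat2. All 3 pairs had the same sign in 28.6% of 15804 tested genes. Plin2, Fabp7, Hilpda and Pnpla2 differed in sign between the pairs.

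**Figure D3:**
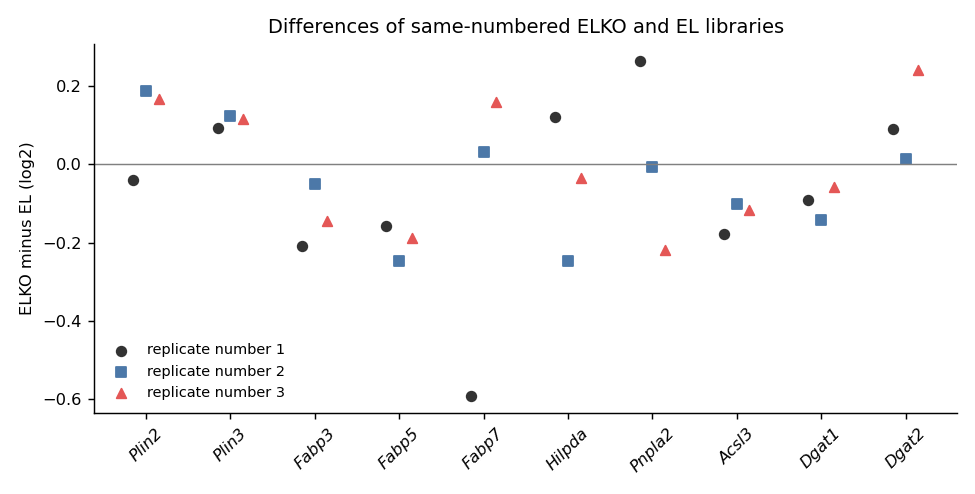
Difference in log2 value between same-numbered ELKO and EL libraries for each member, one marker per replicate number (n = 3 pairs). All markers of Fabp3, Fabp5, Acsl3 and Dgat1 lie below 0 and those of Plin3 and Dgat2 above it, while Fabp7 is at -0.59 in number 1 alone.

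Averaged over both backgrounds, the deletion left 0 of 10 members past the test, beside 0.0% of all tested genes. Plin2 alone had a nominal p under 0.05, beside 1.8% of tested genes, with a mean difference of 0.13 (SE 0.06, limma nominal p = 0.043, adjusted p = 1.0, exact permutation p = 0.0123). It was 0.09 without 5ELKO replicate 2. Plin3 was at 0.10 (SE 0.05, limma adjusted p = 1.0), with positive means in both backgrounds. The interaction, which asks whether the deletion acted otherwise with 5xFAD than without it, gave 0 of 10 at an adjusted p under 0.05, beside 0.0%, and 1 at a nominal p under 0.05, beside 2.73%. That was Acsl3 at 0.22 (SE 0.09, limma adjusted p = 1.0). Without ELKO replicate 1, whose Apoe value went against its labelled genotype, Acsl3 was at 0.17 in the interaction. There 0 members then had a nominal p under 0.05, beside 439 of 15830 genes. The mean deletion effect without that library gave 3 such members, beside 241 of 15830 genes, with Plin2 at 0.16 and Plin3 at 0.12.

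The second question was what 5xFAD itself did with Lilrb4a intact, in 5EL against EL. None of the members passed (0 of 10 in limma, beside 0.0%), 2 had a nominal p under 0.05, beside 7.7% of tested genes, and 1 separated the groups, beside 3.26%. Acsl3, which activates long-chain fatty acids at growing droplets, was at 12.81, 12.83 and 12.95 in EL and at 12.77, 12.60, 12.68, 12.70 and 12.68 in 5EL. All 5 libraries of 5EL lay below all 3 of EL. The difference was -0.18 (SE 0.07, limma nominal p = 0.0153, adjusted p = 0.63), with an exact permutation p of 0.0179, the smallest that 5 against 3 can give. Dgat1, one of the enzymes that complete triglyceride, lay at 8.52, 8.66 and 8.70 in EL and between 8.44 and 8.54 in 5EL, with 4 of 5 below every EL library. It differed by -0.15 (SE 0.06, limma nominal p = 0.0292, adjusted p = 0.63, exact permutation p = 0.0357). Without EL replicate 3 the differences were -0.14 for Acsl3 and -0.11 for Dgat1. In that fit 0 members had a nominal p under 0.05, beside 354 of 15825 genes.

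Fabp3 and Fabp5 had larger but less steady differences. Fabp3 lay at 9.95, 9.99 and 10.54 in EL and between 9.81 and 10.01 in 5EL, a difference of -0.26 (95% interval -0.54 to 0.03), and Fabp5 differed by -0.22 (95% interval -0.48 to 0.03). EL replicate 3 decided much of both, since without it they were -0.07 and -0.07. Fabp7 differed by -0.12 (95% interval -0.48 to 0.23). Plin2 and Pnpla2 differed by 0.03 and 0.00, and Hilpda by -0.02.

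Other cell markers moved in this comparison as well. Scores of the disease-associated microglia list, genes that microglia raise near plaques, were 6.60 to 6.72 in EL and 6.78 to 7.39 in 5EL, and those of thalamic relay neurons 12.38 to 12.61 and 12.03 to 12.38. Reactive astrocyte scores were 8.79 to 9.27 in EL and 9.71 to 10.11 in 5EL. For erythroid genes, scores spanned 4.16 to 5.39 in EL and 4.07 to 4.27 in 5EL. Their part in the values of Acsl3 and Dgat1 was not tested. Over the 15 libraries the correlation with the relay neuron score was r = 0.736 for Acsl3 and 0.484 for Dgat1, and with the reactive astrocyte score -0.68 for both, a description over libraries that share groups.

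With Lilrb4a deleted, 5xFAD was compared between 5ELKO and ELKO. Here 0 of 10 members passed (limma, beside 0.0%), 0 had a nominal p under 0.05, beside 2.37%, and 0 separated the groups, beside 3.4%. Acsl3 differed by 0.04 (95% interval -0.11 to 0.19) and Fabp7 by 0.24 (95% interval -0.13 to 0.61). Without ELKO replicate 1, whose Apoe value went against its labelled genotype, these differences were -0.009 and -0.034. The mean of both 5xFAD comparisons had 0 of 10 past the test, beside 0.0%, and 1 at a nominal p under 0.05, beside 6.57%. That member was Dgat1 at -0.10 (SE 0.04, limma nominal p = 0.0367, adjusted p = 0.693, exact permutation p = 0.0276). Comparisons that share a group share its libraries, so they are not independent.

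**Figure D4:**
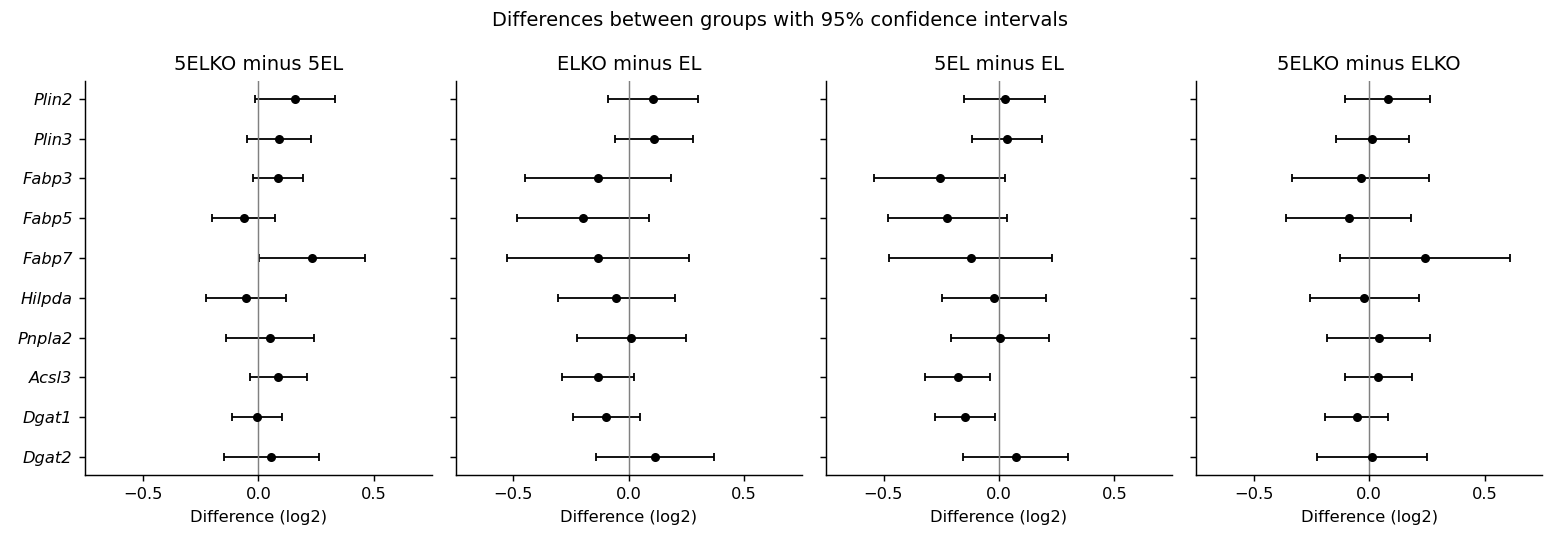
Difference in log2 value with its 95% confidence interval (limma) for each member in 4 comparisons. Intervals leave out 0 only for Fabp7 in 5ELKO minus 5EL (0.23) and for Acsl3 (-0.18) and Dgat1 (-0.15) in 5EL minus EL, and none of these passed the adjusted test.

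Within groups, the carriers varied more than most genes of their level. The within-group SD was 0.26 for Fabp7, 0.21 for Fabp3 and 0.19 for Fabp5, at the 96.2, 93.1 and 91.3 percentiles of genes of like level. Dgat1 was the steadiest, with an SD of 0.07 at the 17.8 percentile. Fabp3 and Fabp5 varied together, with r = 0.89 over the 15 libraries and 0.921 for deviations from the group means. Over the 15 libraries Fabp5 and Dgat1 followed with 0.771, and Fabp5 and Hilpda with 0.762.

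These shared movements tracked a property of whole libraries. Each library was described by the slope of its deviations on gene length over 12029 genes with a mean log2 value above 6, where a negative slope means that short genes are high in that library. The slope was -0.091 in EL replicate 3, -0.081 in ELKO replicate 3 and -0.055 in 5EL replicate 3, and between -0.009 and 0.048 in the other 12. Its correlation with the members was r = -0.92 for Fabp5, -0.87 for Fabp3, -0.67 for Hilpda and -0.64 for Dgat1, but -0.31 for Fabp7 and 0.21 for Plin2. The principal transcripts of Fabp5, Fabp3 and Fabp7 have 987, 823 and 804 bases. The slope was fitted on the union of exons, by which Fabp3 has 823 bases, Fabp7 1250 and Fabp5 3567. By that length Fabp5 is not a short gene, as it is longer than Plin2 with 3512.

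With this slope as a covariate, chosen after the values were seen, the count of members past the adjusted test remained 0 of 10 in the 7 comparisons. Fabp5 in ELKO minus EL was then -0.15 (limma adjusted p = 0.951). Fabp7 in 5ELKO minus 5EL was 0.23 and Plin2 in the mean deletion effect 0.13, close to the values without it, and neither kept a nominal p under 0.05. The difference of Fabp3 between 5EL and EL came to -0.14 in place of -0.26. Fabp3 in 5ELKO minus 5EL, at 0.10, reached a nominal p under 0.05 with the covariate that it did not have without it. The same held for Fabp3 and Fabp5 in 5EL minus EL and for Fabp5 in ELKO minus EL. It also held for Plin3 and Fabp5 in the mean deletion effect and for Fabp3 in the interaction. None of these passed the adjusted test in limma.

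**Figure D5:**
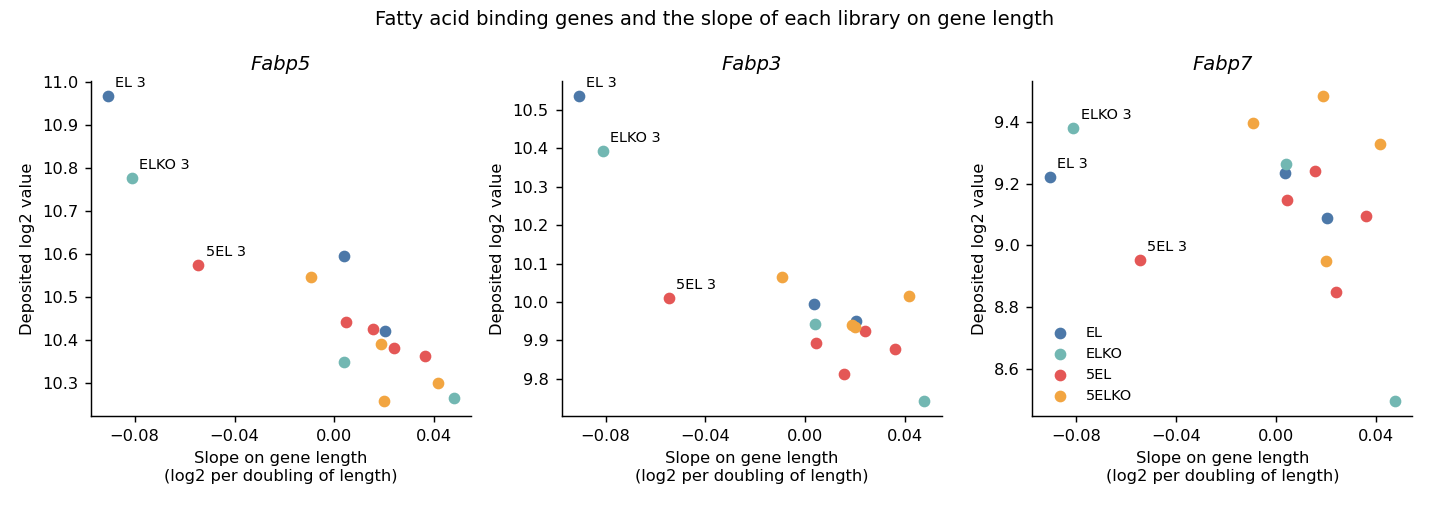
Deposited log2 value of Fabp5, Fabp3 and Fabp7 in each library against the slope of that library on gene length (log2 per doubling of length), coloured by group. The named libraries with slopes from -0.091 to -0.055 include the highest values of Fabp5 and Fabp3, 10.97 and 10.54 in EL replicate 3, but not those of Fabp7.

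Among 15804 genes, those most like Fabp5 over the 15 libraries were Ufsp2 (r = 0.966), Dnajc15 (0.961) and Txn1 (0.956). For Fabp7 they were Aif1l (0.875), Sox2ot (0.858) and Prr5l (0.835), for Plin2 Ddo (0.845), Serpinb8 (0.838) and 4930405A21Rik (0.832), and for Hilpda Zfp692 (0.865), Haghl (0.861) and Lage3 (0.849). With a list of cell markers, Plin3 went most with oligodendrocyte genes (r = 0.802) and Fabp7 with endothelial genes (r = 0.781). The endothelial score ran between 9.68 and 9.98 in 5EL and between 9.92 and 10.12 in 5ELKO, the same direction as Fabp7, and their part in its difference was not tested.

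A wider set of 93 genes of lipid handling was read beside the members, 90 of them listed in the files. Between 5ELKO and 5EL, 0 of 79 tested genes passed the test in limma, and 2 were higher and 2 lower at a nominal p under 0.05, or 5.06%, beside 2.49% of all tested genes. Spg20, which acts on droplet turnover, ran from 9.82 to 9.99 in 5EL and from 9.98 to 10.02 in 5ELKO, a difference of 0.12 (SE 0.05, limma adjusted p = 0.999). Vegfa, a hypoxia target, differed by 0.15 (SE 0.06). Acaa2, a thiolase of fatty acid oxidation, differed by -0.18 (SE 0.07) and Cideb, a droplet protein, by -0.10 (SE 0.04).

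For the mean 5xFAD effect, 0 of 80 passed, and 5 were higher and 3 lower at a nominal p under 0.05, beside 6.57% of all tested genes. The leading gene was Lpl, lipoprotein lipase, which releases fatty acids from lipoproteins and which microglia raise near plaques. It ranged from 7.44 to 7.90 in 5EL, 7.39 to 7.88 in 5ELKO, 6.92 to 7.54 in EL and 7.22 to 7.58 in ELKO. The difference was 0.36 (SE 0.10, limma adjusted p = 0.693). Rxra, the partner of PPARs, was at 0.15, Lpin2, a phosphatidate phosphatase, at 0.14, Ces1d, a carboxylesterase, at 0.09 and Spg20 at 0.08. Agpat5 and Acsl4, which work in glycerolipid synthesis and fatty acid activation, were at -0.13 and -0.11, and Cideb was at -0.08.

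In the other comparisons 0 of 80 genes of the wider set passed the test in limma. At a nominal p under 0.05, 6 were higher and 6 lower in 5EL than in EL, beside 7.7% of all tested genes. In ELKO against EL 1 was higher and 2 lower, beside 2.35%, and in 5ELKO against ELKO 1 higher and 1 lower, beside 2.37%. Of the lists that make up the set, lipolysis with its regulators had 0 of 9 tested genes at a nominal p under 0.05 between 5ELKO and 5EL, synthesis of glycerolipids and sterol esters 0 of 11, uptake and activation of fatty acids 0 of 10, and fatty acid oxidation 1 of 16. Droplet formation with coat partners had 2 of 14, nuclear receptors with hypoxia targets 1 of 14, other perilipins 0 of 2 and other carriers 0 of 3.

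Plin4, a further droplet coat gene, varied widely. In 5ELKO it was 9.95, 8.47, 9.53 and 9.49, in ELKO 9.89, 8.94 and 9.09, in EL 8.97, 9.03 and 9.13, and in 5EL 9.07 to 9.78. Replicate 1 of 5ELKO and of ELKO, the high libraries of Plin4, were also the highest of Pnpla2, at 9.71 and 9.49, and the low 5ELKO replicate 2 was the highest of Plin2. Over the 15 libraries r was 0.69 between Plin4 and Pnpla2, -0.69 between Plin4 and Acsl3 and -0.60 between Plin4 and Plin2, values that were singled out after they were seen.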

How the data were processed

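Polyadenylated RNA of thalamus was sequenced in 15 mouse libraries, grouped by the genotype in the labels. Per the labels and methods, reads were trimmed (Trimmomatic 0.39), aligned to GRCm38 (HISAT2 2.2.1, SAMtools 1.16.1) and counted per gene name on exons without strand (featureCounts 2.0.3). The authors ran FastQC 0.11.9 for quality and DESeq2 1.38.3 for their own tests. The files deposited hold log2 values from -2.27 to 18.98, whose transform and annotation release are not given in the sources used here. They hold no counts, so the reads behind a gene's value cannot be taken from them, and shrinkage of low genes can understate their differences.

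Members, lists and naming rule were chosen with earlier results of these data known. The rule names all members, up to 3 genes of each wider list with the smallest nominal p (described where that was under 0.05, and Plin4) and the 3 genes most like Plin2, Fabp5, Fabp7 and Hilpda. Values were fitted with limma 3.58.1 (lmFit, eBayes with trend, R 4.3.3) and adjusted by Benjamini-Hochberg over all tested genes, those with a log2 value of at least 3.32 in 4 of 9 or 3 of 15 libraries. 5ELKO minus 5EL used 9 libraries, the other comparisons all 15. Exact permutation tests were two-sided (Python 3.11.15), and figures used matplotlib 3.10.9. Tested on simulated data, the fit recovered 90% of genes changed by 0.5 log2 among 15730 for 5ELKO minus 5EL, and 94% among 15789 for the mean 5xFAD effect. The simulated noise was independent for each gene and library, without trends shared by a whole library. Changes under 0.5 log2 were not simulated. The differences of the members were smaller than that, so these shares do not tell how many such differences would be found.

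The labels name no pairs. The numbers of EL and ELKO libraries were read as pairs because their deviations correlated in these same data, at 0.325 to 0.742. Numbers of EL and 5EL were not read as pairs, with correlations of 0.054, 0.228 and 0.189. Lengths and transcripts came from GENCODE M21, which lists 97.2% of the 12379 genes above a mean of 6. Alternatives were the filter, the trend, robust estimation, recentring, a choroid plexus covariate, a replicate block, omitted libraries and, added after seeing the data, the length slope.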

Additional observations from a re-analysis of the deposited data

How the results depend on the processing

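In 1700 recomputations of the 70 member differences under the alternatives, 1587 kept direction and call and 113 changed sign. No member passed an adjusted p of 0.05 in any of them (lowest 0.129), in limma. Of the sign changes, 76 came from leaving out 1 library and 37 from the other alternatives. Fits without 1 library were also the larger part of the recomputations. The precision is limited by 3 to 5 libraries a group, and the values give no read number per gene. A term for sex could not be fitted, as no library differed in the genes that mark it. Counts below are members at a nominal p under 0.05 and other values are log2 differences whose sign turned. The causes were not tested. Without a filter, without a trend, with robust estimation and with all 15 libraries, 5ELKO minus 5EL gave 0 members. With the choroid plexus score as a covariate, 5ELKO minus 5EL gave 0 members, 5EL minus EL gave Hilpda 0.0054, 5ELKO minus ELKO gave Plin3 -0.0068, the mean deletion effect gave 0 members, the interaction gave Pnpla2 -0.0087 and Dgat2 0.011. Without 5EL replicate 1 and ELKO replicate 2, 5ELKO minus 5EL gave 0 members, ELKO minus EL gave Hilpda 0.036, 5EL minus EL gave 1 member, the mean 5xFAD effect gave 0 members, the mean deletion effect gave 0 members and Fabp7 -0.032, the interaction gave Pnpla2 -0.0089. With recentred libraries, ELKO minus EL gave Pnpla2 -0.0048, 5EL minus EL gave Pnpla2 -0.011, the mean deletion effect gave 0 members, the interaction gave Plin3 0.0009 and Hilpda 0.020. With the length slope as a covariate, ELKO minus EL gave 1 member, 5EL minus EL gave 4 members and Hilpda 0.044, 5ELKO minus ELKO gave Fabp3 0.078, Fabp5 0.019, Hilpda 0.044 and Dgat2 -0.020, the mean 5xFAD effect gave 0 members and Hilpda 0.044, the mean deletion effect gave 2 members and Fabp3 0.027, the interaction gave 2 members and Hilpda 0.0002. Of all 15804 tested genes, 581 had a nominal p under 0.05 in ELKO minus EL and 1143 in 5EL minus EL. In the mean deletion effect it was 379 and in the interaction 761. Without the 3 libraries of lowest length slope, ELKO minus EL gave 1 member, 5EL minus EL gave 0 members, Plin2 -0.0016, Hilpda 0.044 and Dgat2 -0.078, 5ELKO minus ELKO gave 2 members, Fabp3 0.15, Fabp5 0.067, Hilpda 0.083, Pnpla2 -0.0033, Dgat1 0.0005 and Dgat2 -0.028, the mean 5xFAD effect gave 0 members, Fabp3 0.025, Hilpda 0.064 and Dgat2 -0.053, the mean deletion effect gave Fabp7 -0.038, the interaction gave 2 members, Hilpda 0.039, Pnpla2 -0.065 and Dgat2 0.050. Of all 15819 genes tested there, 483 had a nominal p under 0.05 in ELKO minus EL, 410 in 5ELKO minus ELKO and 540 in the interaction. With the replicate block, ELKO minus EL gave 3 members, 5EL minus EL gave Hilpda 0.051, 5ELKO minus ELKO gave Plin3 -0.0043. For 5ELKO minus 5EL, 5EL minus EL and 5ELKO minus ELKO the numbers were not read as pairs. There the replicate block left 0 members at an adjusted p under 0.05. With it, Fabp7 in 5ELKO minus 5EL had a nominal p of 0.015 in limma. Leaving out 1 library at a time, the number of members ran from 0 to 3 in 5ELKO minus 5EL, 0 to 4 in ELKO minus EL, 0 to 4 in 5EL minus EL, 0 to 1 in 5ELKO minus ELKO, 0 to 3 in the mean 5xFAD effect, 0 to 3 in the mean deletion effect and 0 to 3 in the interaction. The count over all tested genes moved too. The 3 of 5ELKO minus 5EL came with 499 of 15762 genes at a nominal p under 0.05. The 4 of ELKO minus EL came with 1380 of 15830. The 4 of 5EL minus EL came with 3204 of 15831 or 1456 of 15830. The 3 of the mean 5xFAD effect came with 1788 of 15830, of the mean deletion effect with 241 and of the interaction with 851. For the log2 differences whose sign turned, the ranges in 5ELKO minus 5EL were Dgat1 -0.035 to 0.019, Dgat2 -0.023 to 0.10, Hilpda -0.10 to 0.0078 and Pnpla2 -0.061 to 0.12. In ELKO minus EL these ranges were Pnpla2 -0.065 to 0.085, Fabp3 -0.32 to 0.053, Hilpda -0.16 to 0.041 and Fabp7 -0.30 to 0.14. In 5EL minus EL these ranges were Plin3 -0.0065 to 0.079, Pnpla2 -0.046 to 0.075, Hilpda -0.12 to 0.074 and Dgat2 -0.032 to 0.15. In 5ELKO minus ELKO these ranges were Hilpda -0.11 to 0.083, Pnpla2 -0.071 to 0.12, Dgat2 -0.028 to 0.058, Plin2 -0.012 to 0.13, Plin3 -0.035 to 0.062, Fabp7 -0.034 to 0.41, Acsl3 -0.009 to 0.10, Fabp3 -0.18 to 0.15, Fabp5 -0.19 to 0.067 and Dgat1 -0.11 to 0.0005. In the mean 5xFAD effect these ranges were Hilpda -0.072 to 0.031, Pnpla2 -0.034 to 0.060, Dgat2 -0.0091 to 0.083, Plin3 -0.0009 to 0.048 and Fabp7 -0.079 to 0.14. In the mean deletion effect these ranges were Pnpla2 -0.025 to 0.067, Acsl3 -0.048 to 0.005, Fabp3 -0.12 to 0.069 and Fabp7 -0.034 to 0.19. In the interaction these ranges were Hilpda -0.10 to 0.10, Plin3 -0.068 to 0.029, Pnpla2 -0.073 to 0.11, Plin2 -0.038 to 0.10, Fabp5 -0.018 to 0.29 and Dgat2 -0.14 to 0.046.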
